A study of Mus musculus with 36 samples.

Results

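Kidney RNA of 4 C57BL/6 male mice given a fat-free diet for 3 days was compared with kidney RNA of 5 mice on the diet labelled control (type I), called Control here, which together make up 9 of the 36 arrays of the series. The arrays were chosen by their diet label alone. Every mouse was 10 to 12 weeks old, received SDS chow for 7 days before the diets began and ate ad libitum, and each array carries the RNA of 1 animal. Casein took the place of the fat in the fat-free diet, with the carbohydrate share kept, so fat was absent and protein was more plentiful than in the Control diet. Kidneys were taken directly after the diet, without any ischemia. The same cohort holds 5 protein-free and 5 carbohydrate-free (CHO-free) kidneys, also after 3 days, which serve below to show where the fat-free kidneys differ from those on the other nutrient-free diets. Mice were housed several to a cage and the labels give no cage, so the part of the cage in any difference was not tested. The study asked which nutrient, when absent from the diet, bears on the resistance of the kidney to ischemia.

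Proximal tubule cells draw most of their energy from the oxidation of fatty acids, which they take up from the blood, and the nuclear receptor PPARA drives the genes of that oxidation. Dietary fat is also the source of the essential polyunsaturated fatty acids. In liver, meals without fat are known to raise the lipogenic program of SREBP1c and ChREBP, with Scd1, Fasn and Elovl6 among its targets, and extra dietary protein raises amino acid breakdown and the disposal of ammonia, to which the kidney contributes through glutamine.

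No gene was called between fat-free and Control kidneys. None of 45141 probe sets passed the threshold of the study, a Benjamini-Hochberg adjusted p under 0.05 and a fold change of at least 1.5 (percent called 0), and the lowest adjusted p in the limma fit was 0.755. At an unadjusted p under 0.05 there were 2089 probe sets, or 4.63%, of which 1322 were higher (2.93%) and 767 lower (1.70%) in fat-free kidneys. The 4 fat-free arrays lay entirely above or entirely below the 5 Control arrays for 728 probe sets (1.61%). Differences were small throughout. A fold of 1.5 or more separated the group means of 113 probe sets, 74 of them higher, and a fold of 2 or more separated 10. The median size of a difference was 0.078 on the log2 scale beside a median standard error of 0.113. The 95% interval of the difference stayed within 1.5-fold in either direction for 93.6% of probe sets and within 2-fold for 99.4%. Among the 22570 probe sets above the median signal these shares were 88.5% and 98.8%, at a median standard error of 0.134. In whole tissue, fewer cells of a type and less RNA per cell cannot be told apart in any of these values.

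The same model and the same 5 Control arrays gave 333 called probe sets for the protein-free diet (0.738%) and 1627 for the CHO-free diet (3.60%). The median Euclidean distance was 58.2 between a fat-free and a Control array (20 pairs), against 61.6 between 2 Control arrays (10 pairs) and 53.8 between 2 fat-free arrays (6 pairs). A CHO-free array lay a median of 77.5 from a Control array, and a protein-free array 65.8. Between a fat-free and a protein-free array the median was 59.35, and between a fat-free and a CHO-free array 69.4. Control array TS30 had the lowest mean correlation to the other Control arrays, 0.9908, and values without it are given for some of the genes below.

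**Figure D1:**
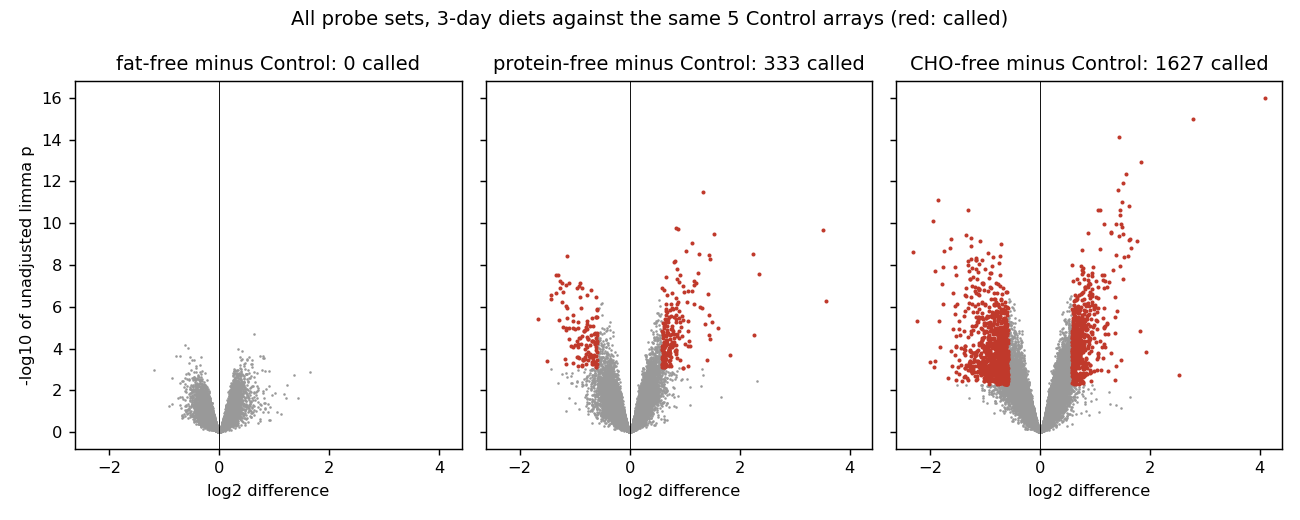
Log2 difference from Control (horizontal axis) against the -log10 of limma's unadjusted p (vertical axis) for every probe set, with called probe sets in red, for the fat-free, protein-free and CHO-free diets. The fat-free panel has 0 red points, against 333 for protein-free and 1627 for CHO-free, and all 3 panels share the 5 Control arrays.

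With no probe set called, the genes below are descriptions of where fat-free and Control kidneys lay farthest apart. They are the probe sets with 1 gene symbol whose groups do not overlap, taken by lowest p and by largest difference. Lonrf1, a RING finger protein, had log2 signals of 7.48, 7.82, 8.02 and 8.05 in fat-free kidneys, against 6.98, 6.77, 6.85, 7.41 and 7.47 in Control kidneys, a difference of 0.75 ± 0.17 (SE). Trpm6, the magnesium channel of the distal convoluted tubule, read 7.75, 7.76, 7.66 and 7.75 in fat-free kidneys against 7.14, 7.28, 7.50, 7.04 and 6.68 in Control (0.60 ± 0.15). In both, the Control arrays spread widely, and the highest of them came close to the lowest fat-free array. Col5a2, a chain of type V collagen, was 0.54 ± 0.13 higher, and its second probe set gave 0.61. Among 23 measured extracellular matrix genes Col5a2 was the only one at an unadjusted p under 0.05 and the median was -0.0075, against 2.95% of all genes higher and 1.87% lower and a median of 0.012 over all genes. Slc5a3, the sodium and myo-inositol cotransporter that loads kidney cells with an osmolyte, read 3.83, 4.47, 4.22 and 4.53 in fat-free kidneys and 3.48, 3.07, 3.37, 3.57 and 3.66 in Control kidneys (0.83 ± 0.23), signals close to those of the 23 nonspecific control probe sets of the array, whose means ran between 2.15 and 4.44. A probe set annotated to both Mrps6 and Slc5a3 was 0.64 higher and had the lowest p of the comparison. Against the same Control arrays, protein-free and CHO-free kidneys differed by 0.55 and 0.45 for Trpm6 and by 0.75 and 1.21 for Slc5a3. For Lonrf1 these differences were 0.34 and -0.105, and for Col5a2 0.12 and 0.15. Of these only the CHO-free value of Slc5a3 was called.

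Glud1, glutamate dehydrogenase, which frees ammonium from glutamate, read well above the nonspecific level. Its signals were 11.46, 11.47, 11.28 and 11.49 in fat-free kidneys, against 11.05, 11.09, 11.00, 11.09 and 11.00 in Control kidneys, 1.3-fold higher on means (0.38 ± 0.098, adjusted p = 0.946). A second Glud1 probe set was 0.35 higher. Also without overlap and higher were Banp (0.82), Apbb3 (0.46), the kinase gene Snrk (0.34), Ch25h, whose enzyme makes the oxysterol 25-hydroxycholesterol (0.53), the AP-1 subunit gene Fosl2 (0.40), Fam25c (0.63), the organic anion transporter family gene Slc22a26 (0.57), the amylase gene Amy1 (0.56), the epithelial ETS factor gene Ehf (0.51) and Krtap5-1 (0.49). Ch25h and Krtap5-1 read at the nonspecific level too. Aldh1a3, which makes retinoic acid, had the largest difference of them, 1.01 ± 0.39. That value rested largely on 1 animal, since the signals were 4.15, 4.65, 6.29 and 4.30 in fat-free kidneys against 3.90, 3.55, 4.00, 3.63 and 4.10 in Control, and it was 0.53 without fat-free TS41. Against the same Control arrays, Aldh1a3 differed by 0.71 in protein-free and 1.48 in CHO-free kidneys, and Amy1 by 0.72 and 1.38. Of these the protein-free value of Aldh1a3 alone was not called. Fam25c lay below Control in protein-free kidneys (-0.45) and Slc22a26 in CHO-free kidneys (-0.58). In fat-free kidneys Tmem108 was higher by 0.38 at a dim probe set and lower by 0.44 at a brighter one, so its probe sets disagree.

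Rsrp1, which encodes a protein rich in arginine and serine, had the only probe set at less than 0.5 of its Control level, with 4.64, 5.33, 5.56 and 5.70 in fat-free kidneys, against 6.64, 6.42, 6.59, 5.98 and 6.82 in Control kidneys (-1.18 ± 0.32, 0.441 of the Control level). Against the same Control arrays this probe set differed by -0.95 in protein-free and -1.36 in CHO-free kidneys, the latter called. The probe sets of Rsrp1 were not alike: in fat-free kidneys a second one was lower by 0.56 and the brightest by 0.083. With the 3' minus 5' difference of Gapdh as a covariate, the first one differed by -0.76 between fat-free and Control. The part of RNA quality in it was not tested further. Npas2, which pairs with Arntl to drive clock genes, read 4.24, 4.59, 4.45 and 4.15 in fat-free kidneys and 4.96, 5.64, 4.75, 5.32 and 5.08 in Control kidneys (-0.79 ± 0.19). The fat-free signals were close to the highest mean of the nonspecific control probe sets, 4.44. A second, dimmer Npas2 probe set differed by 0.018. Mylk3, a myosin light chain kinase known from heart, read 3.41, 3.68, 3.20 and 3.88 in fat-free kidneys against 3.90, 4.29, 4.28, 4.23 and 4.60 in Control (-0.72 ± 0.17), signals close to the nonspecific level. The licensing factor Cdt1, which loads the replicative helicase onto DNA, read 5.84, 5.93, 6.06 and 6.13 in fat-free kidneys against 7.09, 6.54, 6.51, 6.30 and 6.24 in Control (-0.55 ± 0.14), and Control TS26 was the highest of the 9 arrays. Its dimmer probe sets differed by -0.29 and 0.21. The heparin-binding growth factor gene Mdk was lower by 0.68 ± 0.21 and the imprinted gene Phlda2 by 0.63 ± 0.20, both without overlap.

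Ppard, the fatty acid-sensing receptor PPARδ, had the lowest p among genes that were lower, with 3.72, 3.57, 3.68 and 3.39 in fat-free kidneys, against 4.42, 4.58, 4.30, 3.93 and 3.80 in Control kidneys (-0.61 ± 0.13, adjusted p = 0.755). These signals too are close to the nonspecific level, and the second Ppard probe set differed by -0.0039. Against the same Control arrays Ppard was also lower in protein-free (-0.87) and CHO-free kidneys (-0.72), both called. Auts2 (-0.57), Arhgap12 (-0.34) and Defb19 (-0.53) also read near that level. Defb19 differed from Control by -0.57 in protein-free and by -0.91 in CHO-free kidneys, the latter called. The brightest Arhgap12 probe set differed by 0.0064 in fat-free kidneys. For Gart, of purine synthesis, for the histone gene H2aj and for Ak3 the listed probe sets gave -0.42, -0.60 and -0.61, while the brightest probe set of each gene differed by 0.064, 0.00014 and -0.052. Ankrd40 (-0.43), 2610528J11Rik (-0.35), the coagulation gene Proz (-0.52), Arhgef39 (-0.59), Sectm1b (-0.59) and the kidney mitochondrial carrier gene Slc25a30 (-0.56) complete the genes below Control without overlap. Against the same Control arrays, Proz (-0.90 and -1.26) and Sectm1b (-1.29 and -1.24) were also called lower in protein-free and CHO-free kidneys. Slc25a30 was called lower in CHO-free kidneys only (-1.27), and Ankrd40, 2610528J11Rik and Arhgef39 in neither. The fat-free minus Control values of Ak3 and Slc25a30 were -0.19 and -0.078 with the Gapdh covariate.

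**Figure D2:**
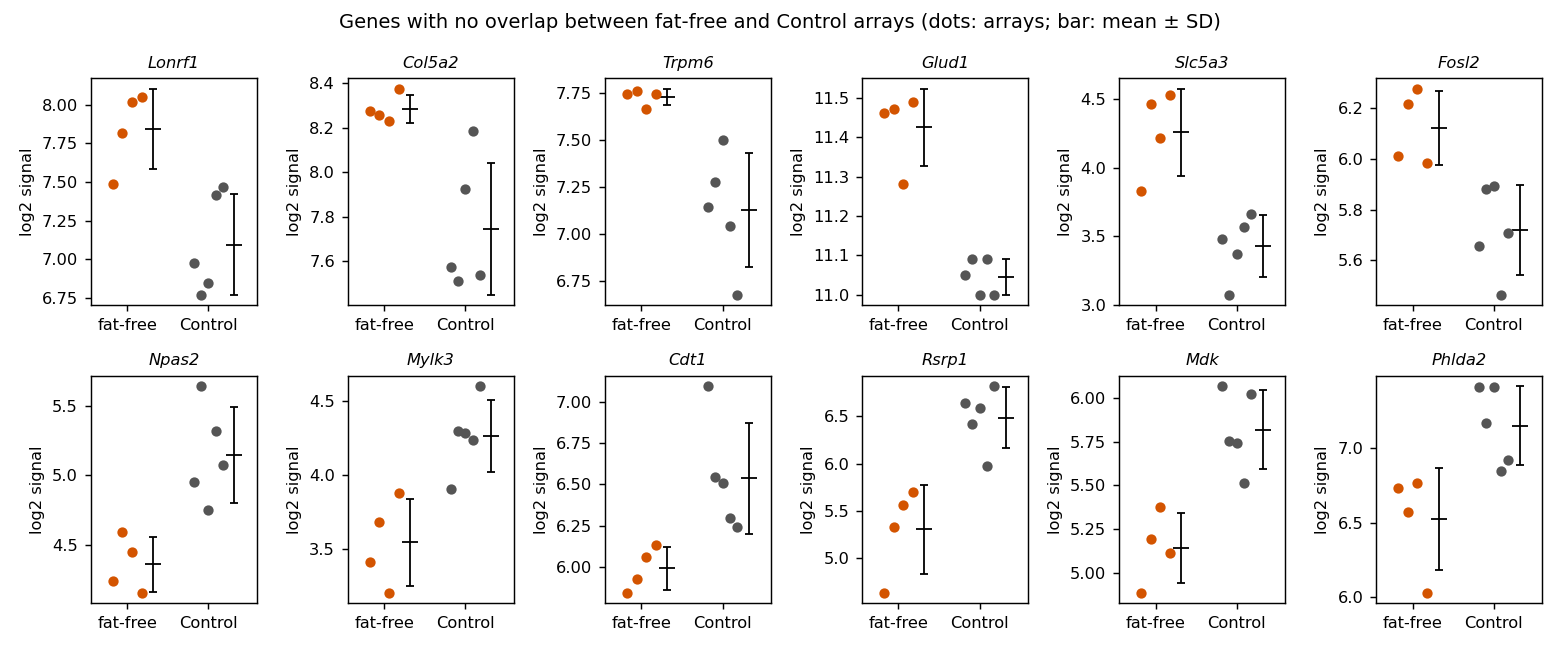
Log2 signal of 12 genes (vertical axes, each with its own range) in each fat-free array (orange, left) and each Control array (grey, right), with the group mean and SD as a bar. In every panel the groups do not overlap, as for 1.61% of all probe sets, and none of the 12 passed the adjusted threshold.

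Among the genes of fatty acid synthesis none approached a call. Of 12 measured, 0 were at an unadjusted p under 0.05, 7 were higher and 5 lower, and the median difference was 0.076. Fasn, the fatty acid synthase, read 8.03, 8.21, 7.88 and 7.83 in fat-free kidneys, against 8.28, 8.07, 8.44, 7.63 and 6.86 in Control kidneys. Acaca, which makes malonyl-CoA for it, read 6.20, 6.51, 6.29 and 6.22 in fat-free kidneys against 6.66, 6.44, 6.28, 5.83 and 5.38 in Control, and the ATP citrate lyase gene Acly 9.91, 9.99, 9.77 and 9.82 in fat-free kidneys against 10.00, 9.99, 10.25, 9.94 and 9.66 in Control. In these genes the 4 fat-free arrays fell within the spread of Control, where TS30 was lowest. The differences were 0.14 (95% interval -0.60 to 0.87) for Fasn, 0.19 (-0.42 to 0.79) for Acaca and -0.098 (-0.38 to 0.18) for Acly, and the intervals of Fasn and Acaca reached past 1.5-fold. Without Control TS30, Fasn was lower by 0.11 and Acaca differed by 0.0024.

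Scd1, the stearoyl-CoA desaturase that makes oleate from stearate, was the lipid gene with the largest positive difference. It read 11.39, 10.84, 10.88 and 11.20 in fat-free kidneys, against 10.91, 10.74, 11.14, 10.10 and 9.72 in Control kidneys, a difference of 0.56 ± 0.28 with an interval of -0.017 to 1.13 (limma's unadjusted p = 0.0565, adjusted p = 0.998). The groups overlapped, because Control TS28 and TS26 lay among the fat-free arrays, and without Control TS30 the difference was 0.36. A second, dimmer Scd1 probe set differed by 0.022. Fads1, the delta-5 desaturase of polyunsaturated fatty acids, read 8.38, 8.37, 8.47 and 8.50 in fat-free kidneys against 8.14, 8.27, 8.53, 8.06 and 7.66 in Control (0.30 ± 0.14). By the brightest probe set of each gene, Fads1 was the only one of 13 desaturases and elongases at an unadjusted p under 0.05. Without TS30 it was 0.18 higher. Fads2, the delta-6 desaturase that acts before it, lay on the other side, with 7.55, 8.06, 8.14 and 7.81 in fat-free kidneys against 8.31, 8.17, 8.29, 7.87 and 7.73 in Control (-0.18 ± 0.17). Elovl6 and Elovl5, which lengthen saturated and polyunsaturated chains, differed by 0.27 ± 0.16 and 0.22 ± 0.11, and by 0.12 and 0.15 without Control TS30. Across the list 7 were higher and 6 lower with a median of 0.017, close to the 0.012 of all genes.

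Fatty acid oxidation and the targets of PPARA held 1 of 32 genes higher and 1 lower at an unadjusted p under 0.05. The shares of all genes at that level were 2.95% higher and 1.87% lower, and the median of the list was 0.041. Cpt1b, a carnitine palmitoyltransferase that admits long-chain fatty acids to mitochondria, was 0.27 ± 0.12 higher. The liver-type Cpt1a differed by 0.077 (-0.13 to 0.28). Without Control TS30, Cpt1b was 0.16 higher and Cpt1a differed by -0.0016. Ucp3, a mitochondrial carrier induced by fatty acids, was lower by 0.38 ± 0.14 at a dim signal. Pdk4, the kinase that closes pyruvate dehydrogenase when fat is burned, read 8.32, 7.88, 7.71 and 7.34 in fat-free kidneys, against 7.56, 6.83, 7.10, 7.48 and 7.38 in Control kidneys (0.54 ± 0.31), with TS37 highest. The PPARA targets Cyp4a10, Acot1 and Angptl4 differed by 0.21, -0.29 and -0.099, with standard errors of 0.22, 0.25 and 0.37, and Ppara itself by -0.18. Angptl4, an inhibitor of lipoprotein lipase, spread over 8.77, 8.73, 7.79 and 6.94 within the fat-free group alone.

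The other lipid lists held 0 or 1 gene at that level, to be read against the same shares of all genes. It was 0 of 21 triglyceride and lipid droplet genes (median 0.025), 0 of 15 genes of fatty acid uptake and activation (0.0092), 0 of 10 LXR targets (0.043) and 0 of 19 genes of cholesterol synthesis (-0.042). In the last list Fdps, of the isoprenoid pathway, was lowest at -0.51 ± 0.30, and Insig1, which holds SREBP proteins in the endoplasmic reticulum, differed by -0.072 (-0.46 to 0.31). With the Gapdh measure as a covariate, Fdps was at -0.083. Of 25 eicosanoid genes, which act on the polyunsaturated fatty acid arachidonate, Ltc4s of leukotriene synthesis was lower by 0.48 ± 0.16, at signals close to the nonspecific level. Cyp4a12a, whose enzyme makes 20-HETE in male mouse kidney, read 7.29, 7.49, 6.66 and 5.81 in fat-free kidneys and 8.66, 7.64, 7.70, 8.04 and 6.54 in Control kidneys (-0.90 ± 0.46), an overlapping pair of groups with fat-free TS42 lowest. Without Control TS30 the Cyp4a12a difference was -1.20. Apom, an apolipoprotein made by the proximal tubule, was lower by 0.70 ± 0.34, and by 0.24 with the Gapdh covariate.

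**Figure D3:**
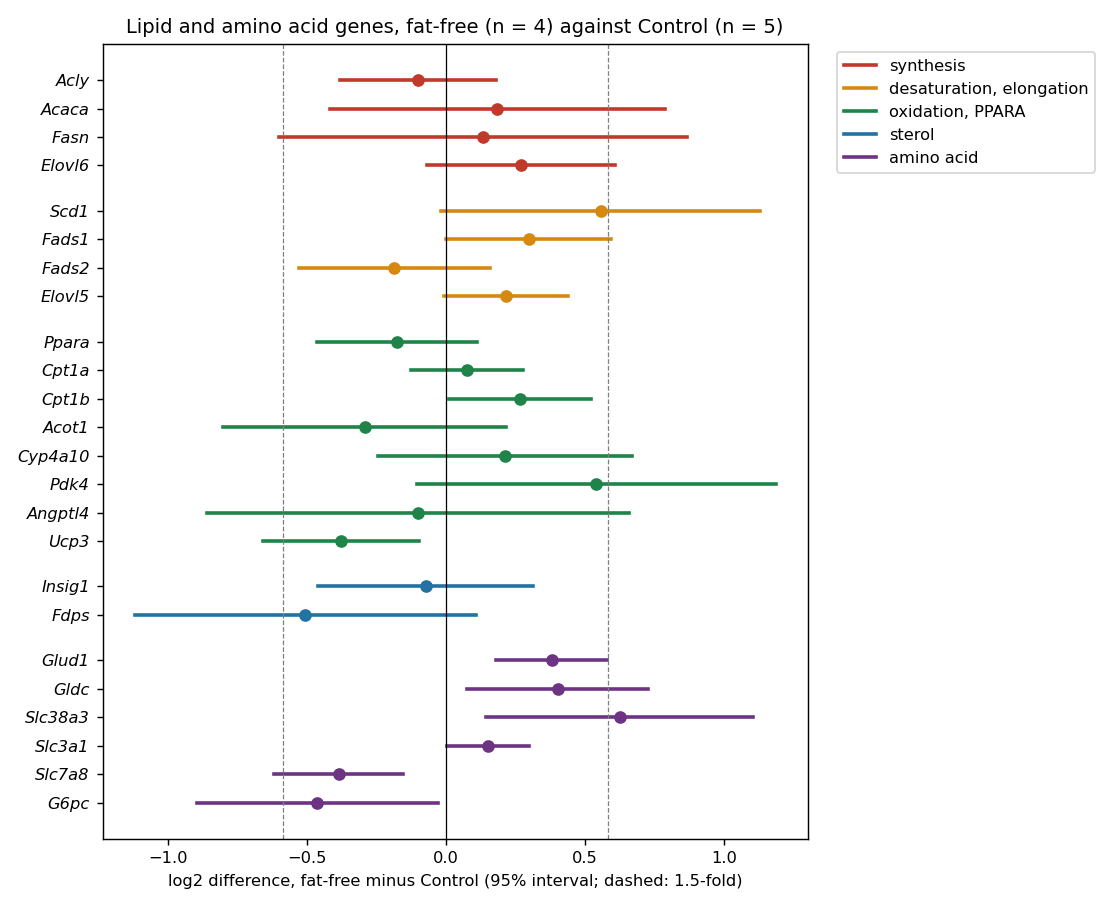
Log2 difference of fat-free from Control (points) with its 95% interval (lines) for genes of lipid and amino acid metabolism, grouped by color, with dashed lines at 1.5-fold. The intervals of Fasn, Acaca, Scd1 and Pdk4 reach past 1.5-fold while that of Cpt1a stays within it, and among the lipid genes only Cpt1b, Fads1 and Ucp3 have intervals that leave out 0.

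Genes that handle amino acid nitrogen were mixed. Of 31 amino acid catabolism genes 3 were higher and 0 lower at an unadjusted p under 0.05, against 2.95% of all genes higher and 1.87% lower, with a median of 0.012. They were Glud1, Gldc of the glycine cleavage system and Hal, the histidine lyase, whose signal of 2.38 to 2.86 was at the nonspecific level. Gldc read 7.88, 8.46, 8.47 and 8.33 in fat-free kidneys, against 7.94, 7.86, 8.00, 7.80 and 7.81 in Control kidneys (0.40 ± 0.16), where TS37 was the one fat-free array within the Control range. Of 17 genes of glutamine, ammonia and glucose formation 3 were higher and 2 lower, to be read against the same shares of all genes. Slc38a3, the glutamine transporter of the proximal tubule's basal side that supplies ammonia formation, read 6.73, 6.60, 6.70 and 6.27 in fat-free kidneys against 6.52, 6.08, 5.93, 5.72 and 5.49 in Control (0.63 ± 0.23, 1.54-fold, adjusted p = 0.998), and only TS42 lay below the highest Control array. Slc3a1, a subunit of the tubule's cystine transporter, was 0.15 ± 0.071 higher, and 0.086 higher without Control TS30. The amino acid exchanger gene Slc7a8 was lower by 0.38 ± 0.11, and G6pc, the last enzyme of glucose release, by 0.46 ± 0.21. In 21 genes of the ATF4 and amino acid response Nupr1 alone reached that level, at 7.00, 7.55, 8.50 and 7.63 in fat-free kidneys and 7.01, 6.81, 6.87, 7.20 and 7.14 in Control kidneys (0.67 ± 0.26), and TS41 carried much of it, with 0.39 without that array.

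The immediate early genes, which switch on within minutes of a stimulus without new protein synthesis, were the list with the largest median of the 26 pathway lists. Of 20 measured, 18 were higher in fat-free kidneys, the median difference was 0.31, and 5 were higher and 0 lower at an unadjusted p under 0.05, against 2.95% of all genes higher and 1.87% lower. Egr1, a zinc finger factor, read 9.01, 8.04, 9.19 and 8.93 in fat-free kidneys, against 8.44, 6.53, 8.50, 6.41 and 7.88 in Control kidneys (1.24 ± 0.41, 2.36-fold). Fos, the AP-1 subunit, read 7.41, 6.27, 7.40 and 6.87 in fat-free kidneys against 6.69, 4.82, 6.82, 4.52 and 6.20 in Control (1.18 ± 0.45, 2.26-fold, adjusted p = 0.998). Nr4a1, an orphan nuclear receptor, read 8.31, 6.82, 8.31 and 7.07 in fat-free kidneys against 7.67, 6.06, 7.98, 5.54 and 6.25 in Control (0.92 ± 0.47). The same 2 Control arrays, TS27 and TS29, were the lowest of the 9 for Egr1, Fos and Nr4a1, and the remaining Control arrays lay close to or among the fat-free arrays. Btg2, an antiproliferative gene, was 0.57 ± 0.27 higher, Ier2 0.47 ± 0.20, Fosl2 0.40 ± 0.11 and Junb 0.54 ± 0.29. The mean of the 20 genes was 6.47, 6.11, 6.51 and 6.26 in fat-free kidneys and 6.16, 5.76, 6.37, 5.55 and 6.01 in Control kidneys. With any 1 array left out, Egr1 stayed between 0.95 and 1.49 and Fos between 0.86 and 1.43. The fat-free minus protein-free difference of Egr1 was -0.097, and 0 of the 20 genes were called between fat-free and either other diet.

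The promoters of Fos and Btg2 are shown for the cAMP response element, the site through which these genes answer to cAMP and calcium, and that of Ciart, a clock gene described next, for the E-box bound by Arntl with Clock or Npas2. Each window runs from 250 bases before the start of the gene to 50 after it (RefSeq, GRCm38.p6). Capitals mark TGACG, the core of that element, on either strand in Fos (chr12:85473640-85473939, + strand) and Btg2 (chr1:134079106-134079405, - strand), and CACGTG in Ciart (chr3:95882179-95882478, - strand).
Fos: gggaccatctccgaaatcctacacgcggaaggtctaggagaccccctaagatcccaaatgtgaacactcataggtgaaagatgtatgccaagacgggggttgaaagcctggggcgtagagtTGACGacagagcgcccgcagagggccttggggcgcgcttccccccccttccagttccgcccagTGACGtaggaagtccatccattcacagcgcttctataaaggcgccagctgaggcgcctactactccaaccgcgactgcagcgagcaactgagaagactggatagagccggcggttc
Btg2: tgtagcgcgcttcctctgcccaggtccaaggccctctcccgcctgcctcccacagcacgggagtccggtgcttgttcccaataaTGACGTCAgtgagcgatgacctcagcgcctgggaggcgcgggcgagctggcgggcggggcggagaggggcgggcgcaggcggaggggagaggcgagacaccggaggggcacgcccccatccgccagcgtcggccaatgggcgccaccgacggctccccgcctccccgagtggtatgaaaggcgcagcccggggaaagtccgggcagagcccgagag
Ciart: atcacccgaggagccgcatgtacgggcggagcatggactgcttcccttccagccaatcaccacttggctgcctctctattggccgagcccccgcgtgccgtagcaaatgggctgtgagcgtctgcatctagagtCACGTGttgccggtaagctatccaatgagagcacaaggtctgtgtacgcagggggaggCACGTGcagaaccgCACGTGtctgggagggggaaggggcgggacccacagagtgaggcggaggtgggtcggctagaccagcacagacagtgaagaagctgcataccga
Fos holds 2 copies of the core. In Btg2 the 2 matches overlap and together spell the full palindrome TGACGTCA. The core was present for 11 of the 16 immediate early genes with a promoter in the table (14 of their 22 windows), against 20.8% of all 32851 windows. The full TGACGTCA was present for 3 of the 16 genes (Btg2, Dusp1 and Maff), against 1.79% of windows. An E-box was present for 5 of 16 clock genes (6 of 21 windows), against 7.15% of all windows, and Ciart held 3 of them. A match describes the letters of the window only.

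Clock genes differed in both directions without reaching the threshold. Of 18 measured 1 was higher and 1 lower at an unadjusted p under 0.05, against 2.95% of all genes higher and 1.87% lower. The lower gene was Npas2 and the higher one Ciart. The Npas2 partner Arntl read 5.99, 5.44, 5.14 and 5.27 in fat-free kidneys, against 5.43, 6.01, 5.88, 5.76 and 6.14 in Control kidneys (-0.38 ± 0.20), where fat-free TS37 and TS38 lay within the Control range. Ciart, a repressor of the Clock complex, read 3.38, 4.05, 3.95 and 4.12 in fat-free kidneys against 3.45, 2.86, 3.79, 3.18 and 3.42 in Control (0.53 ± 0.22), signals close to the nonspecific level. TS37 was the only fat-free array within the Control range. The E-box target genes Dbp, Per1 and Per3 were 0.44 ± 0.30, 0.35 ± 0.22 and 0.34 ± 0.18 higher, and Per2 0.20 ± 0.31. Without Control TS30, Dbp, Per1 and Per3 were 0.30, 0.20 and 0.31 higher. The other nutrient-free diets, set against the same 5 Control arrays, gave Npas2 differences of -1.22 for protein-free and -0.81 for CHO-free, and Arntl differences of -0.69 for each. Fat-free minus protein-free, which does not use the Control arrays, was 0.42 for Npas2 and 0.31 for Arntl, neither called.

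**Figure D4:**
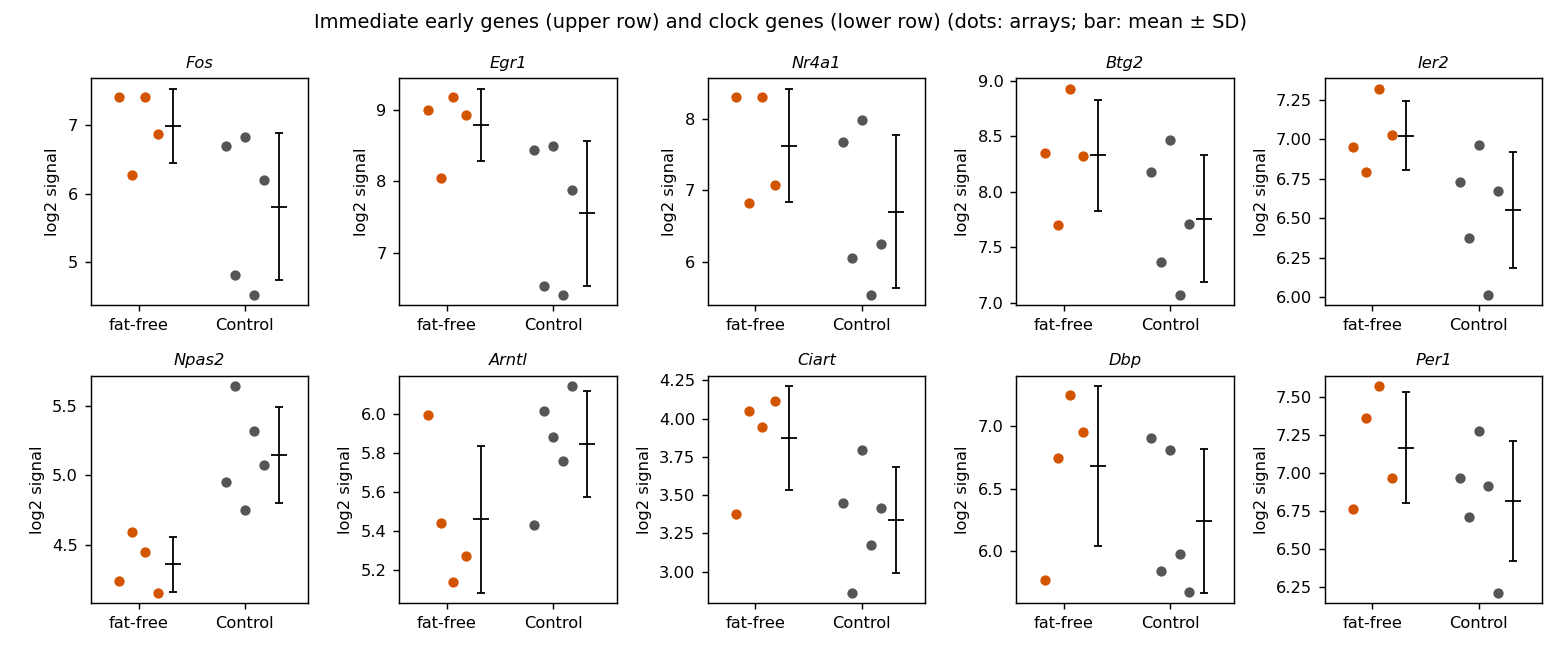
Log2 signal per array (vertical axes, each with its own range) of 5 immediate early genes and 5 clock genes in fat-free (orange, left) and Control (grey, right) kidneys, with the mean and SD as a bar. Of these panels Npas2 alone has groups that do not overlap, and 2 of the 5 Control arrays lie far below the rest in Fos and Egr1.

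Among cell cycle genes 6 of 34 were lower and 0 higher at an unadjusted p under 0.05, with a median of -0.082 and 21 of 34 lower, against 1.87% of all genes lower at that p. Nusap1, of the mitotic spindle, was the one without overlap, at 4.47, 4.33, 3.86 and 4.43 in fat-free kidneys and 4.72, 4.55, 4.61, 4.94 and 5.22 in Control kidneys (-0.54 ± 0.19). Cdca3, Ube2c and Rrm2 were lower by 0.39, 0.43 and 0.45, and Mki67, the proliferation marker, read 4.46, 4.36, 4.25 and 4.24 in fat-free kidneys against 5.07, 4.21, 4.41, 5.17 and 4.59 in Control (-0.37 ± 0.20). All these signals are low, and the mean of the 34 genes ran from 4.26 to 4.47 in fat-free kidneys and from 4.30 to 4.63 in Control kidneys.

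Retinoid and vitamin D genes had 4 of 20 higher and 0 lower at that level, against 2.95% of all genes higher and 1.87% lower, although the list's median was -0.082. They were Aldh1a3, the retinaldehyde dehydrogenase gene Aldh1a1 (0.35 ± 0.14), the retinol dehydrogenase gene Rdh16 (0.35 ± 0.12) and Crabp2, a carrier of retinoic acid (0.34 ± 0.13), whose signal was close to the nonspecific level. Of 18 FOXO factors and targets 2 were higher and 0 lower at that level, to be read against the same shares. Foxo3 was 0.37 ± 0.11 higher, with 9.34, 9.17, 9.44 and 9.13 in fat-free kidneys against 9.22, 8.80, 9.05, 8.81 and 8.61 in Control, and the insulin receptor gene Insr 0.30 ± 0.12. In both, 1 or more Control arrays reached the fat-free range, and without Control TS30 they were 0.30 and 0.20 higher. Foxo3 was also higher than in Control in protein-free (0.47) and CHO-free kidneys (0.58), both below the 1.5-fold minimum. Foxo1, dim at this probe set, differed by 0.067 (-0.098 to 0.23). Gclc, of glutathione synthesis and an NRF2 target, read 10.15, 11.30, 11.29 and 11.38 in fat-free kidneys against 10.43, 10.27, 10.27, 10.90 and 10.41 in Control (0.57 ± 0.21), where TS37 alone lay below every Control array. The ferritin light chain gene Ftl1, another NRF2 target, was lower by 0.25 ± 0.087. Of 10 urea and water transport genes the basolateral water channel Aqp4 was 0.63 ± 0.23 higher. Of 16 cytosolic chaperone genes the heat shock gene Hspa1b alone reached that level (0.74 ± 0.36 higher). In that list 8 were higher and 8 lower, with a median of -0.0016. Of 13 tubular injury genes 2 were higher and 0 lower at that level, Fga (0.54 ± 0.15) and Vcam1 (0.23 ± 0.096), with a median of 0.20. Of 15 interferon-stimulated genes it was 2 and 0, Ifit3 (0.33 ± 0.14) and Stat2 (0.28 ± 0.12), with a median of 0.085. These counts are to be read against the same shares of all genes. Vcam1 and Stat2 read close to the nonspecific level, and the Vcam1 difference was 0.083 without fat-free TS37 and TS42.

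The large housekeeping lists bound the comparison most tightly. None of 36 oxidative phosphorylation genes reached an unadjusted p under 0.05, their differences lay between -0.22 and 0.17, and the 95% interval of all 36 stayed within 1.5-fold. The 20 genes of endoplasmic reticulum folding did likewise, between -0.13 and 0.20. For 46 of 48 cytosolic ribosomal protein genes the interval was within 1.5-fold, and Rpl14 was lower by 0.37 ± 0.12. For fatty acid synthesis that held for 7 of 12 genes, and within 2-fold for 11.

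Markers of the kidney's own cell types were well above the nonspecific level in every array. The mean of 10 proximal tubule markers lay between 10.8 and 11.0 in fat-free kidneys and between 10.6 and 11.1 in Control kidneys, and that of 7 thick ascending limb markers between 10.6 and 10.8 in fat-free and between 10.6 and 10.7 in Control kidneys. Of 14 cell type means and 2 measures of RNA quality, compared by 2-sided exact permutation tests over the 9 arrays (126 arrangements, smallest p 0.0079), none had an adjusted p below 0.381. Single markers at an unadjusted p under 0.05 were Trpm6, Fxyd4 (0.49), Slc4a1 (0.28), Flt1 (0.36), Star (0.35) and Serpina1c (0.69) on the higher side, and Ass1 (-0.29), Cela1 (-0.54) and the androgen-responsive Gusb (-0.32) on the lower. They are to be read against 2.95% of all genes higher and 1.87% lower at that p. Of 7 endothelial markers 2 were higher and 5 lower (median -0.037), and the other Flt1 probe sets differed by 0.13 and 0.029. Of 6 pancreas markers 3 were higher and 3 lower. Star read close to the nonspecific level, and its other probe sets differed by -0.034 and -0.011. The adipocyte markers averaged 5.15 to 6.09 in fat-free kidneys, against 5.20 to 6.08 in Control kidneys. Liver markers differed by animal. Alb, albumin, read 9.50, 7.87, 6.52 and 8.67 in fat-free kidneys against 6.30, 7.51, 6.88, 7.74 and 7.83 in Control, and Apoa1 6.26, 4.02, 3.44 and 4.83 in fat-free kidneys against 3.84, 4.16, 3.91, 4.03 and 4.20 in Control. The mean of the 5 markers was 8.68 in fat-free TS37, 7.85 in TS42, 7.51 in TS38 and 6.84 in TS41. In Control it was at most 7.46, so only TS41 did not exceed every Control array. Ttr, also a liver marker, differed by -0.15 and Apoa2 by 0.41. The methionine cycle gene Bhmt read 6.37, 5.28, 5.25 and 6.22 in fat-free kidneys, against 5.16, 5.54, 4.86, 5.05 and 5.39 in Control kidneys. The retinol carrier gene Rbp4 read 6.27, 4.35, 3.82 and 5.26 in fat-free kidneys, against 4.01, 4.50, 4.16, 3.84 and 4.34 in Control kidneys. Both were high in the same TS37 and TS42, and without those 2 arrays their differences were 0.062 and -0.088, compared with 0.58 and 0.75 on all arrays.

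The distance between the 3' and 5' control probe sets, which grows as RNA is degraded or copied short, averaged larger in fat-free kidneys. For Gapdh it was 1.78, 0.89, 1.17 and 1.23 in fat-free kidneys, against 0.95, 0.96, 0.65, 0.86 and 0.70 in Control kidneys (exact permutation p = 0.024, adjusted over the 16 measures 0.381). For Actb it was 2.99, 2.49, 2.80 and 2.70 in fat-free kidneys, against 2.64, 2.53, 1.99, 2.40 and 1.84 in Control kidneys (exact permutation p = 0.056). With the Gapdh measure as a covariate 0 probe sets were called and 2073 had an unadjusted p under 0.05.

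Set directly against the other nutrient-free diets, the fat-free kidneys had called genes. Against protein-free kidneys 109 probe sets of 71 named genes passed (0.241%), 44 higher (0.0975%) and 65 lower (0.144%). Cyp24a1, which breaks down active vitamin D, had the largest negative difference of the genes named here, with 8.01, 6.94, 7.63 and 7.95 in fat-free kidneys, against 10.86, 11.12, 9.88, 10.70 and 10.27 in protein-free kidneys, a difference of -2.94 ± 0.47 (adjusted p = 0.00188). Depp1, a FOXO target, read 5.24, 5.71, 6.10 and 5.32 in fat-free kidneys and 7.03, 8.15, 7.74, 8.24 and 8.07 in protein-free kidneys (-2.26 ± 0.32). In neither gene did the fat-free and protein-free groups overlap, and fat-free minus Control was -0.68 ± 0.47 and 0.11 ± 0.32. Mfsd2a, a carrier of lysophospholipids with polyunsaturated chains, had the largest positive one, with 7.22, 8.32, 9.09 and 8.81 in fat-free kidneys, against 6.98, 6.63, 7.12, 5.72 and 5.71 in protein-free kidneys (1.93 ± 0.41). Bcat1, the cytosolic branched-chain aminotransferase, was 1.44 ± 0.24 higher, Polr3e of RNA polymerase III 1.23, the type III collagen gene Col3a1 1.15 and Ugt2b37 1.08. Against Control, Mfsd2a, Bcat1, Polr3e, Col3a1 and Ugt2b37 differed by 0.51, 0.48, 0.23, -0.0075 and 0.45 in fat-free kidneys. In protein-free kidneys these differences were -1.42, -0.96, -0.99, -1.16 and -0.63. Car3, also an adipocyte marker, was 1.57 higher than in protein-free kidneys. The adipocyte marker mean ran from 5.15 to 6.09 in fat-free and from 4.81 to 7.54 in protein-free kidneys. Bex1, the retinol dehydrogenase family gene Rdh16f2, the copper protein gene Cp and Slc22a27 lay below protein-free kidneys by 1.37, 1.29, 1.25 and 1.21. Against Control these genes differed by -0.19, 0.25, 0.22 and -0.24 in fat-free kidneys. In protein-free kidneys they were 1.18, 1.53, 1.47 and 0.97 higher than in Control, all called. Of the lists, 3 of 34 cell cycle genes, among them Mki67 (0.96 ± 0.20), were called higher than in protein-free kidneys. Of 18 FOXO genes 3 were called lower, where 0.181% of all genes were called in each direction. Against Control, 11 of those 34 genes were called lower and 5 of those 18 higher in protein-free kidneys, with 0.738% of probe sets called. In fat-free kidneys 0 of either list were called, and Mki67 differed from Control by -0.37, against -1.33 in protein-free kidneys. Red blood cell markers averaged 9.23 to 9.50 in fat-free and 8.40 to 8.91 in protein-free kidneys.

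Against CHO-free kidneys 564 probe sets of 378 named genes passed (1.25%), 281 higher (0.622%) and 283 lower (0.627%). Slc38a3 lay farthest apart of the genes named here, with 6.73, 6.60, 6.70 and 6.27 in fat-free kidneys, against 10.44, 9.44, 10.11, 10.02 and 10.19 in CHO-free kidneys (-3.46 ± 0.23, adjusted p = 1.06e-09). Glud1 read 11.46, 11.47, 11.28 and 11.49 in fat-free kidneys against 12.44, 12.47, 12.19, 12.59 and 12.69 in CHO-free kidneys (-1.05 ± 0.098), and Gldc was lower by 0.60. Casein replaced the missing nutrient in both diets, in larger amount in the CHO-free one, which also lacked carbohydrate. Casein amount and missing nutrient cannot be told apart here, and neither was tested as a cause. Set against the shared Control arrays, Slc38a3 averaged 0.63 higher in fat-free and 4.09 higher in CHO-free kidneys, Glud1 0.38 and 1.43, and Gldc 0.40 and 1.01. In protein-free kidneys Slc38a3 averaged 0.62 and Glud1 0.034 higher than in Control. Insig1 read 7.59, 6.89, 6.92 and 7.12 in fat-free kidneys, against 8.86, 8.39, 8.73, 8.44 and 9.20 in CHO-free kidneys (-1.59 ± 0.19), and it was 1 of 2 cholesterol synthesis genes of 19 called lower, against 0.801% of all genes called higher and 0.772% lower. Fam25c, Bcl7c, Col27a1 and the monocarboxylate transporter family gene Slc16a6 were also lower, by 2.16, 1.72, 1.59 and 1.44. Against Control these genes differed by 0.63, 0.11, 0.017 and 0.021 in fat-free and by 2.79, 1.83, 1.61 and 1.46 in CHO-free kidneys. Higher in fat-free than in CHO-free kidneys were the annexin gene Anxa13 (1.66), Syn3 (1.59) and the sphingolipid hydroxylase gene Degs2 (1.49). So were the ubiquitin ligase gene Rnf183 (1.48), Slc22a27 (1.32) and Olfm3 (1.22). Against Control, in the same order, these genes differed by -0.29, -0.17, -0.42, -0.37, -0.24 and -0.15 in fat-free kidneys. In CHO-free kidneys these differences were -2.0, -1.8, -1.9, -1.9, -1.6 and -1.4. G6pc was 0.89 higher and Mdk 1.07 higher than in CHO-free kidneys. No gene of fatty acid synthesis or of the desaturases and elongases was called between fat-free and either diet, at a median of 0.062 and 0.070 for the first list and 0.025 and -0.020 for the second, relative to protein-free and CHO-free kidneys in that order. The Gapdh 3' minus 5' difference ran from 0.89 to 1.78 in fat-free and from 0.98 to 2.45 in CHO-free kidneys, and as a covariate it left 288 called probe sets, while leaving out CHO-free TS32 gave 1507.

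**Figure D5:**
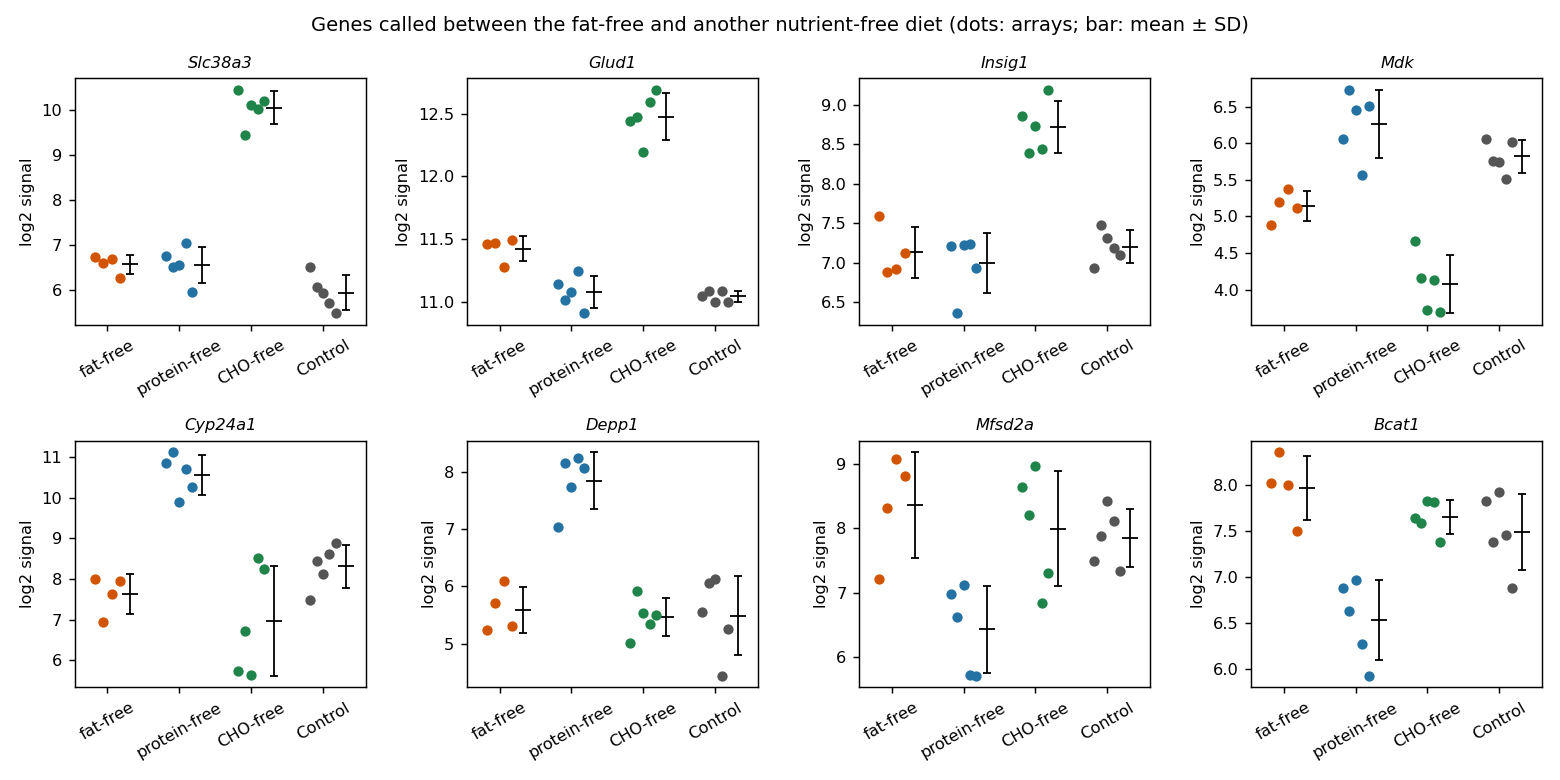
Log2 signal per array (vertical axes, each with its own range) of 8 genes called between the fat-free diet and another nutrient-free diet, in fat-free, protein-free, CHO-free and Control kidneys, with the mean and SD as a bar. The CHO-free arrays stand alone in Slc38a3, Glud1 and Insig1 and the protein-free arrays in Cyp24a1 and Depp1, and in all of these but Glud1 the fat-free and Control ranges overlap.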

How the data were processed

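The deposited log2 values were made by the authors with RMA (version not given in the sources used here) from Affymetrix HT MG-430 PM arrays, 1 per mouse, after they had left out an outlying array of the fat-free group. Groups were taken from the diet labels. The 27 arrays of the diet cohort were fitted together in limma 3.58.1 (R 4.3.3) on all 45141 probe sets, with Benjamini-Hochberg adjustment and the thresholds of the study, a false discovery rate of 5% and a fold change of 1.5. Gene counts used the brightest probe set of each of 17097 genes with 1 symbol. Named genes had lowest p or largest difference among probe sets whose groups do not overlap, with list genes added, and the gene lists and genes were chosen with earlier results of these data known. Array means were compared by exact permutation tests (Python 3.11.15). The code was tested on simulated data. The arrays give no counts or read depth, so their number limits the precision. Alternatives were other normalizations, priors, filters and covariates, and arrays left out. The 9 arrays of the fasting cohort, normalized separately, were not used. Mice were labelled as separate animals.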

Additional observations from a re-analysis of the deposited data

Results flagged for a closer look

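Of 296 groups of 4 or 5 arrays examined, 12 held an array far from the others (4.05%), and chance alone sets 1 aside in about 20 such groups. In fat-free kidneys TS41 stood apart for Trpm6 (7.663), Glud1 (11.28) and Cpt1a (10.79), TS37 for Gclc (10.15) and for both Car3 probe sets (5.858 and 10.48), and TS42 for Cela1 (9.813). In Control kidneys the arrays set apart were TS27 for Crabp2 (2.939), TS29 for Gclc (10.9), TS28 for Car3 (7.587) and Anxa13 (5.329), and TS30 for Slc22a27 (7.155).

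The fat-free diet differed from another nutrient-free diet in the limma contrast between them for 44 pairs of a named probe set and a diet. Against protein-free kidneys the fat-free log2 level was higher for Mfsd2a (1.927), Car3 (1.572 and 1.311), Bcat1 (1.442), Polr3e (1.225), Col3a1 (1.154), Ugt2b37 (1.08), Fam25c (1.073), Mki67 (0.9609), Anxa13 (0.9324) and Fxyd4 (0.6693). It was lower for Cyp24a1 (-2.936), Depp1 (-2.256 and -1.933), Bex1 (-1.365), Rdh16f2 (-1.286), Cp (-1.248), Slc22a27 (-1.208) and Mdk (-1.12). Against CHO-free kidneys it was higher for Anxa13 (1.658), Syn3 (1.59), Degs2 (1.487), Rnf183 (1.482), Slc22a27 (1.318), Olfm3 (1.218), Slc22a26 (1.15), Mdk (1.07), G6pc (0.885), Lonrf1 (0.8521) and Proz (0.7405). It was lower for Slc38a3 (-3.464), Fam25c (-2.159), Bcl7c (-1.72), Insig1 (-1.594), Col27a1 (-1.593), Slc16a6 (-1.437), Glud1 (-1.051), Cdt1 (-0.9119), Amy1 (-0.821), Slc4a1 (-0.8057), Rdh16f2 (-0.7477), Ppara (-0.7092), Car3 (-0.7084) and Gldc (-0.6017). Mdk and Slc22a27 lay between the other diets, below protein-free and above CHO-free kidneys.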

How the results depend on the processing

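Fat-free against Control gave 0 called probe sets under every alternative but array weights, which gave 2 (Ppard, -0.73, and a probe set of Mrps6 and Slc5a3, 0.70, both at limma's adjusted p = 0.0349). The 2089 probe sets at an unadjusted p under 0.05 became 1054 among those above the median signal and 810 with 1 probe set per gene, where fewer were tested, and 1771 to 2405 with 1 array left out. Fat-free against protein-free, 109 called, gave 47 to 98 with 1 array left out, with the largest losses without fat-free TS38 (47), fat-free TS42 (72) and protein-free TS52 (72). Fat-free against CHO-free, 564 called, gave 338 (without CHO-free TS34) to 1507 (without CHO-free TS32), with 366 without fat-free TS38, 368 without CHO-free TS35 and a count between 338 and 366 without fat-free TS42. It gave 268 with only the 2 groups fitted, 1269 with no fold minimum, 292 with 1 probe set per gene and 288 with the Gapdh covariate. Subtracting array medians turned its split of 281 higher and 283 lower into 350 and 232. Of the alternatives chosen after seeing the data, leaving out fat-free TS37 and TS42 gave 46 against protein-free and 137 against CHO-free, and the liver marker mean as a covariate gave 65 against protein-free. The Gapdh 3' minus 5' difference of 0.44 was 0.27 to 0.57 with 1 array left out, its unadjusted exact permutation p staying under 0.05 only without fat-free TS38, and 0.47 for Actb. For 132 named probe sets, 10 of 2496 alternative values moved by more than the spread between replicates, and 41 values in 17 probe sets changed sign. Except where named, the cause was not tested. No paired analysis was run, because the groups are different animals with 1 array each.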
